A study of Mus musculus with 2 samples.

Results

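Cluster 27 was the largest amacrine cluster of the Cre− retina in a single-nucleus RNA-seq (snRNA-seq) experiment on whole retinas from C57 BL/6J mice at postnatal day 21. Its members are all nuclei with the deposited name amacrine and the deposited cluster number 27. In the Cre− library 256 of 403 amacrine nuclei belonged to it, which is 63.5% (58.6 to 68.2) of the amacrine nuclei and 3.48% (3.07 to 3.92) of 7357 nuclei in all. In the Tet tcKO library 21 of 1043 amacrine nuclei and of 6766 nuclei in all did, or 2.01% (1.25 to 3.06) of its amacrine nuclei. Because 21 nuclei fell short of the 50 set as a minimum, gene levels of cluster 27 were not compared between genotypes. All intervals given here are exact 95% intervals that cover counting error only.

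The study asked how retinal cells form when the TET enzymes, which oxidise methylated cytosine, are missing. Cre− mice lacked the Cre transgene, came from Cre− breeders and had the genotype label WT, and the sources used here do not give whether they carried floxed Tet alleles. Tet tcKO mice carried floxed Tet1, Tet2 and Tet3 with 2 copies of the Chx10::Cre-GFP transgene, which is active in retinal progenitor cells. Each genotype is 1 library of nuclei from 2 dissociations, each of more than 4 retinas per the series description and at least 4 per the paper. The nuclei carry no pool label, and nuclei of 1 library are not replicates. No test across nuclei was therefore run. The genes also shaped the clusters, so the levels below describe the cluster and are not a test of it.

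Amacrine cells are interneurons of the inner retina that receive input from bipolar cells and shape the output of retinal ganglion cells (RGCs). Most release either GABA or glycine, and starburst amacrine cells release acetylcholine as well as GABA. GABA is made by the enzymes encoded by Gad1 and Gad2, whereas glycinergic cells take up glycine through the transporter encoded by Slc6a9. The transcription factor genes Tfap2a, Tfap2b and Pax6 are active across many amacrine types.

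The 256 Cre− nuclei of cluster 27 held 300246 UMIs (unique molecular identifiers, here counted transcripts), at 565 to 3801 UMIs per nucleus. The median nucleus had 973 UMIs from 764 genes. The other 147 Cre− amacrine nuclei held 258312 UMIs and belonged to cluster 12 (14 nuclei), cluster 13 (72 nuclei), cluster 23 (26 nuclei) and cluster 24 (35 nuclei). Cluster 27 was the shallowest of these, since the other medians lay between 1012 and 3151 UMIs per nucleus. Levels are UMIs summed over a population per 1000000 UMIs of all its genes (CPM). The libraries shared 1 barcode, and 0 barcodes of cluster 27 were among the Tet tcKO nuclei.

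All 11 fixed amacrine markers had a UMI in cluster 27, but only some of them stood above the level of rods. Tfap2a stood at 263 CPM (208 to 328) against 39.4 CPM in rods, which should lack it and which had a median depth of 1026 UMIs. Tfap2b stood at 579.5 CPM (497 to 672) against 217 in rods. Pax6 stood at 916 CPM (811 to 1031) against 363 in rods. These levels were all above the rod level beyond counting error.

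Transmitter genes were less clear. Gad1 stood at 117 CPM (81.2 to 162) against 54.2 CPM in rods, and Gad2 at 63.3 CPM (38.1 to 98.8) against 17.9. Slc6a9 stood at 137 CPM (98.0 to 185) against 112 CPM in rods, a log2 ratio of 0.29 (−0.20 to 0.74), so its signal in cluster 27 could not be told from background. The vesicular transporter gene Slc32a1, used by both GABA and glycine cells, had 6 UMIs in cluster 27, and its log2 ratio to rods was 0.22 (−1.25 to 1.39). The label therefore rests on Tfap2a, Tfap2b, Pax6, Gad1 and Gad2, and it has no support from Slc6a9. In GRCm39, Tfap2a lies at chr13:40868778-40891852, Gad1 at chr2:70383416-70432372 and Slc6a9 at chr4:117691703-117732395. All 3 overlap annotated genes on the opposite strand, and the sources used here do not say whether counting used strand.

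**Figure D1:**
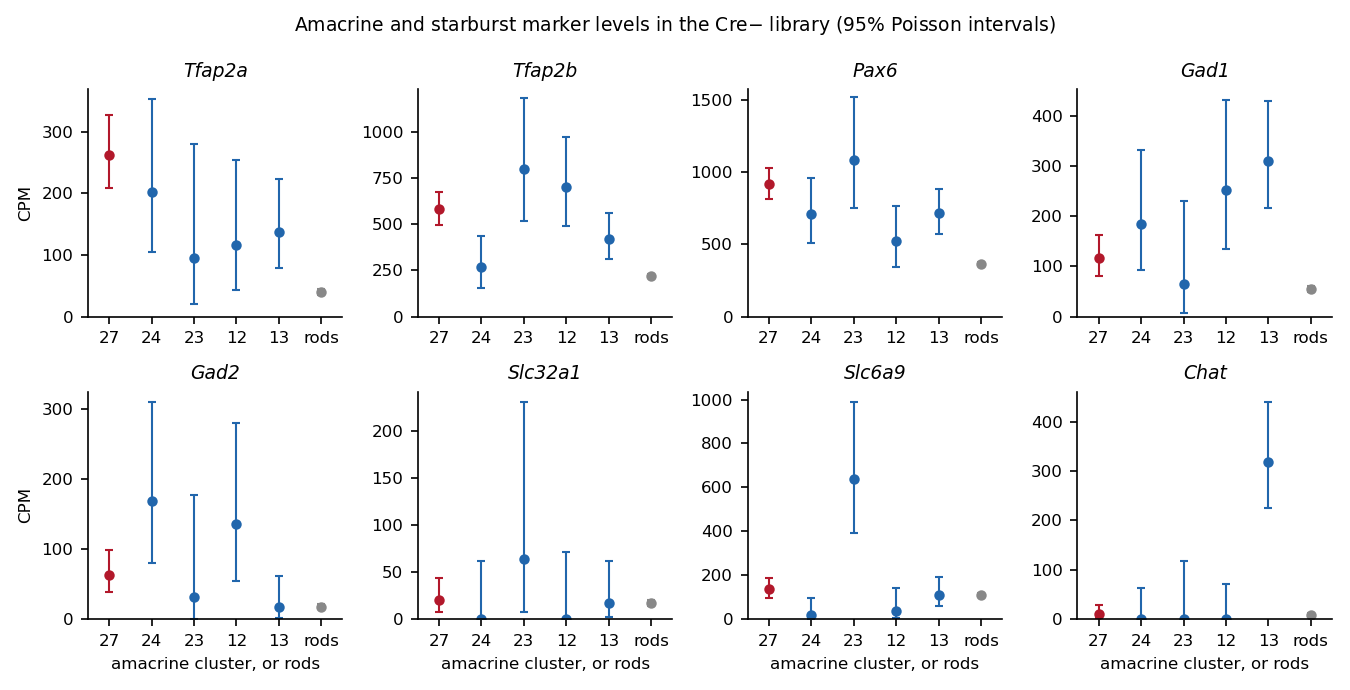
CPM of 8 marker genes (vertical axes, linear from 0) in cluster 27 (red), the other 4 Cre− amacrine clusters (blue) and rods (grey), with exact 95% Poisson intervals. Tfap2a was at 263 CPM in cluster 27, Slc6a9 was at 639 CPM in cluster 23 and at 137 in cluster 27, and Chat was found in cluster 13 at 318 CPM.

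Starburst genes were close to absent. Chat, the acetylcholine synthesis enzyme, had 3 UMIs in cluster 27 and 37 UMIs in the other amacrine nuclei, and all 37 were in cluster 13. Slc5a7, the choline transporter gene, had 0 UMIs in cluster 27 and 21 in cluster 13, so its level was at least 8.14-fold lower in cluster 27 than in the other amacrine nuclei when the 0 was set to 3 UMIs. The 4 starburst markers together had 9 UMIs in cluster 27 (13.7 to 56.9 CPM) and stood at 525 CPM in cluster 13. Slc18a3, the vesicular acetylcholine transporter gene, had 0 UMIs in all 5 amacrine clusters.

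Transcripts of other cell classes were also present. The 10 rod markers all had UMIs in cluster 27 and summed to 3477 CPM, below the 11678 CPM of rods. Cluster 13 stood at 3759.9 CPM, and clusters 12, 23 and 24 were lower, at 1225, 2236 and 1803 CPM. The 9 cone markers summed to 709 CPM, against 311 to 465 CPM in the other amacrine clusters, and the 10 bipolar markers to 1612 CPM, against 1112 to 1516. RGC markers made 339.7 CPM and Müller glia markers 536 CPM. The share of UMIs from the 13 mitochondrial genes was 2.93% in cluster 27 and between 1.36% and 2.77% in the other amacrine clusters. The part of these transcripts in the gene ratios was not tested.

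To compare transmitter genes nucleus by nucleus, each nucleus was thinned to 500 UMIs, a depth that every nucleus reached. A UMI of Gad1 or Gad2 without Slc6a9 was found in 26 of 256 nuclei (10.2%, 6.74 to 14.5), against 3.74% (3.24 to 4.29) of rods. Slc6a9 without Gad1 or Gad2 was found in 20 nuclei (7.81%, 4.84 to 11.8), against 4.95% (4.38 to 5.57) of rods. The GABA share was above the rod share and the Slc6a9 share overlapped it. Without thinning, 17.2% of nuclei had Gad1 or Gad2 only and 10.9% had Slc6a9 only, against 7.08% and 11.7% of rods.

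Both kinds of transcript were found in 0 of 256 thinned nuclei (0 to 1.43%) and, without thinning, in 4 of 256 (1.56%, 0.427 to 3.95), against 1.44% of unthinned rods. Most nuclei, 210 of 256 (82.0%, 76.8 to 86.5), had neither. At this depth the cluster could not be divided into GABA and glycine cells from these genes. In the other amacrine nuclei Gad1 was found in 12.9% (7.96 to 19.4) of thinned nuclei, against 5.86% (3.32 to 9.48) in cluster 27 and 3.03% (2.58 to 3.53) in rods. Tfap2a went the other way, with 3.40% (1.11 to 7.76) of the other amacrine nuclei, 10.2% (6.74 to 14.5) of cluster 27 and 2.09% (1.72 to 2.52) of rods.

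Across genes, cluster 27 was compared with the other 147 Cre− amacrine nuclei for 10233 genes that reached 10 CPM in either population. At least 2-fold higher in cluster 27 were 1220 genes (11.9%), and at least 2-fold lower were 1011 (9.88%). Most of them rested on few UMIs, because 10 CPM in cluster 27 is 3 UMIs. Only 231 genes (2.26%) were 2-fold higher with a counting interval above 0, and 263 (2.57%) 2-fold lower with an interval below 0. Among 2342 genes at 100 CPM or more, 61 were 2-fold higher and 103 were 2-fold lower. The median log2 ratio over all genes was 0.07.

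Col11a1, which encodes a fibrillar collagen chain, had the highest ratio among genes at 100 CPM or more. It had 121 UMIs in cluster 27 (403 CPM, 334 to 482) and 22 UMIs in the other amacrine nuclei (85.2 CPM), a log2 ratio of 2.24 (1.58 to 2.97). Its level was 97.2, 77.4, 95.8 and 84.2 CPM in clusters 12, 13, 23 and 24 and 63.0 CPM in rods. All 4 other Cre− clusters were thus below cluster 27 and close to one another. In the Tet tcKO library the other amacrine nuclei held 1495 UMIs of Col11a1 (646 CPM), so a level of this size was not limited to cluster 27. The UMIs came from 50 of the 256 nuclei, with up to 14 in 1 nucleus. Col11a1 lies on chromosome 3 of GRCm39, at chr3:113824134-114014367.

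**Figure D2:**
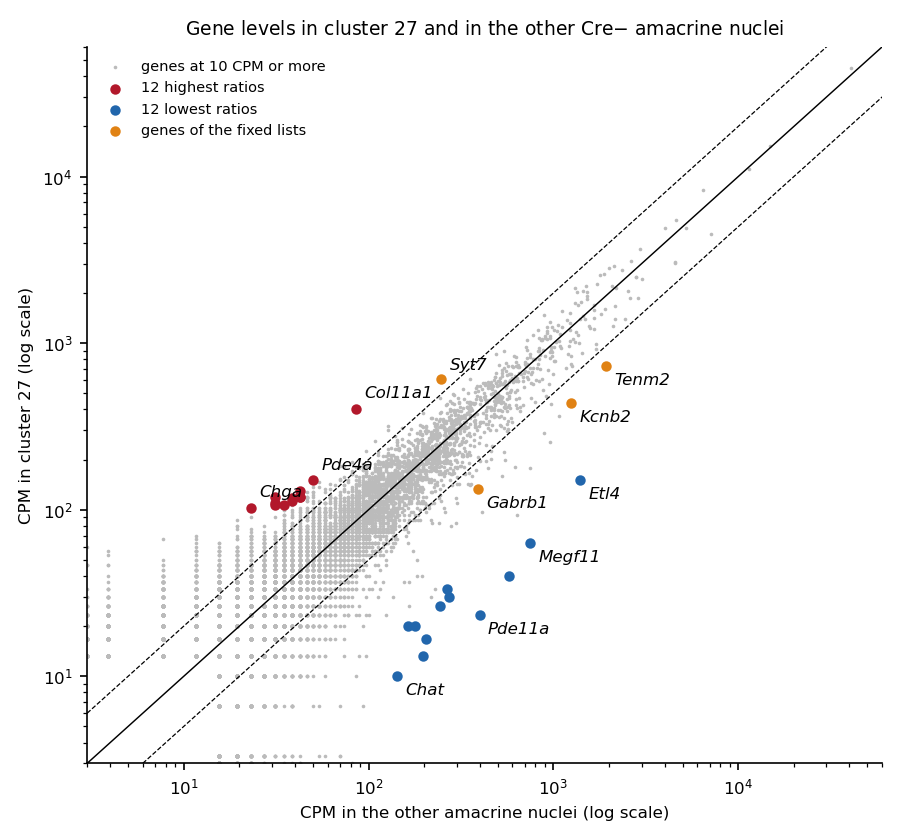
Levels of 10233 genes in the other Cre− amacrine nuclei (horizontal axis, CPM, log scale) and in cluster 27 (vertical axis, CPM, log scale), with lines of equal level (solid) and of 2-fold difference (dashed) and values under 3 CPM drawn at the edge. Col11a1 is at 403 against 85.2 CPM and Etl4 at 149.9 against 1398, and the steps at low levels are single UMIs.

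The other 11 of the 12 highest ratios belonged to genes at 103 to 149.9 CPM. Chga, the dense-core vesicle protein chromogranin A, had 31 against 6 UMIs and a log2 ratio of 2.15 (0.87 to 3.70). Cnbd2, a gene for a cyclic nucleotide-binding protein, had 36 against 8 UMIs (1.95, 0.82 to 3.27). Pde4a, a cAMP phosphodiesterase, had 45 against 13 UMIs (1.57, 0.66 to 2.59). These are small numbers, and no single nucleus held more than 3 UMIs of any of these 3 genes.

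The rest of the 12 were Acap3 and Nagk, at log2 ratios of 1.83 and 1.78, and Mpp7, Ctdspl2, Gm17276, Ccdc88b, Slc20a1 and Tspan9, at 1.49 to 1.61. Acap3 encodes an Arf GTPase-activating protein, Nagk a sugar kinase and Slc20a1 a phosphate transporter. All 12 were higher in cluster 27 than in each of the other 4 clusters, some by a small margin on few UMIs. Tspan9 was at 119.9 against 118 CPM in cluster 24, and Pde4a at 149.9 against 128 CPM in cluster 23. In 10 of the 12 the level in cluster 27 was also above that in rods beyond counting error, and Mpp7 (129.9 against 129 CPM) and Slc20a1 (119.9 against 106 CPM) were the exceptions.

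The 12 lowest ratios were mostly set by cluster 13. Etl4 had 45 UMIs in cluster 27 (149.9 CPM) and 361 in the other amacrine nuclei (1398 CPM), a log2 ratio of −3.22 (−3.70 to −2.77). Its level was 2788 CPM in cluster 13, 421 in cluster 24, 233 in cluster 12 and 0 in cluster 23. Megf11, an EGF-repeat protein known from the spacing of starburst cells, had 63.3 CPM in cluster 27 and 1626 CPM in cluster 13, but 0 to 38.9 CPM in the other 3 clusters. Cluster 13 had the highest level of the other clusters for 11 of the 12 genes.

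Sox2ot, a long noncoding RNA that spans the Sox2 gene, had 40.0 CPM in cluster 27 and 1265 CPM in cluster 13. Isl1, a homeodomain factor of starburst cells, had 33.3 CPM in cluster 27 and 576 CPM in cluster 13, with 185 CPM in rods. Slc24a4, Gng7, Extl3, Eya2 and Myo5b, which encode a sodium, calcium and potassium exchanger, a G protein subunit, a heparan sulfate enzyme, a coactivator and a myosin, were also highest in cluster 13, at 361 to 551 CPM. In cluster 27 they had 5 to 9 UMIs each. Rods had 22.3 to 111 CPM of these 5 genes, and for 4 of them the level in cluster 27 did not differ from rods beyond counting error. Slc24a4 was lower than in rods (−2.73, lower bound −4.36, with the whole interval below 0).

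**Figure D3:**
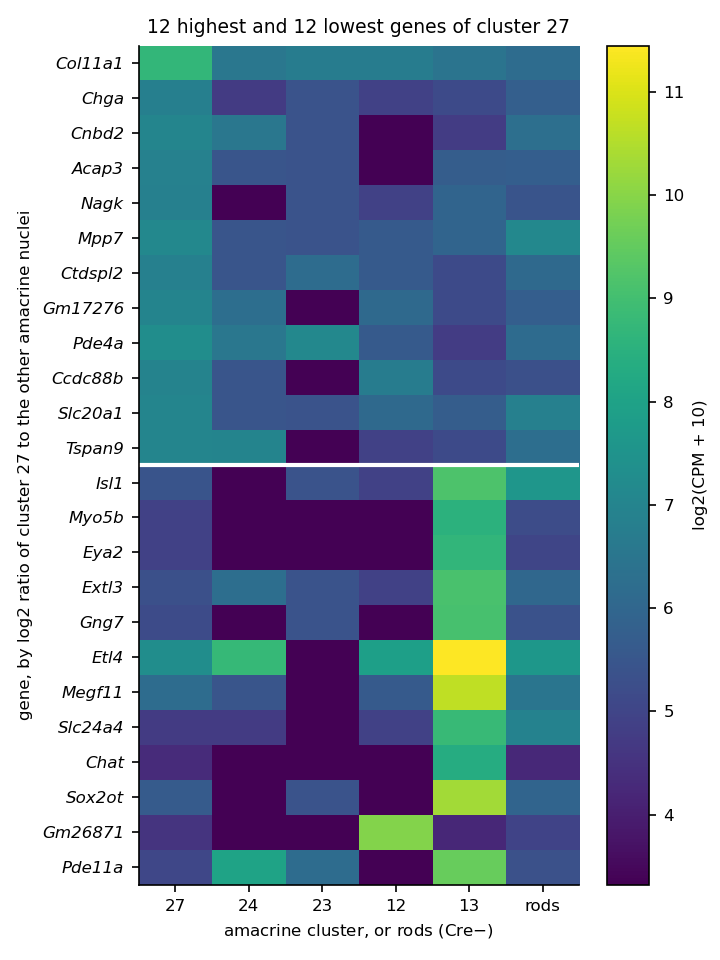
Levels of the 12 genes highest and the 12 lowest in cluster 27 against the other Cre− amacrine nuclei, as log2(CPM + 10), in 5 amacrine clusters and rods. The upper 12 are highest in cluster 27, Col11a1 most, and 11 of the lower 12 are highest in cluster 13, while Gm26871 is highest in cluster 12.

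Leaving cluster 13 out left 75 other amacrine nuclei with 142085 UMIs. At least 2-fold higher in cluster 27 were then 1467 of 9690 genes (15.1%), and 879 (9.07%) were at least 2-fold lower. The higher genes included some with more in rods, such as Esrrb (143 CPM, 379.6 in rods) and Nrl (139.9 CPM, 435 in rods). Others, such as Nagk and Acap3, had less in rods than in cluster 27. The part of rod transcripts in these ratios was not tested. Of the 12 lowest genes, Pde11a and Gm26871 remained 2-fold lower, each through 1 cluster in the main. Pde11a, a cyclic nucleotide phosphodiesterase, had 7 UMIs in cluster 27 (23.3 CPM) and 253 CPM in cluster 24, with a log2 ratio of −2.36 (−3.87 to −1.02) without cluster 13 and −4.10 with it. It had 0 UMIs in cluster 12 and 2 UMIs in cluster 23 (63.9 CPM). Gm26871, an unnamed transcript, had 4 UMIs in cluster 27 (13.3 CPM) and 972 CPM in cluster 12. It was at 8.60, 0 and 0 CPM in clusters 13, 23 and 24, so it was not low in cluster 27 against those.

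Of the others, Sox2ot, Gng7, Isl1, Megf11 and Slc24a4 turned to log2 ratios of 2.51, 1.92, 1.24, 1.17 and 0.24 without cluster 13. Their intervals all held 0, so against clusters 12, 23 and 24 none of the 5 differed beyond counting error. Extl3, Eya2 and Myo5b likewise had intervals that held 0. Etl4 was under 2-fold but stayed lower beyond counting error, at −0.80 (−1.46 to −0.13). For Chat no ratio could be given. In contrast, 11 of the 12 highest genes stayed 2-fold higher without cluster 13, Col11a1 at 2.14 (1.31 to 3.09), and Pde4a was under the limit at 0.95. The interval then held 0 for 2 of the 12, Pde4a and Tspan9.

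Several GABA-A receptor subunit genes were lower in cluster 27. Of 17 GABA-A receptor subunit genes, 11 reached 10 CPM and 0 were 2-fold higher, against 11.9% of all genes. At least 2-fold lower were 4 of them (36.4%, against 9.88% of all genes). All 4 had an interval below 0, against 2.57% of all genes. The median log2 ratio was −0.88, against 0.07 for all genes, and −0.79 without cluster 13. Gabrb1, a beta subunit, had 40 UMIs in cluster 27 (133 CPM) and 101 in the other amacrine nuclei (391 CPM), a log2 ratio of −1.55 (−2.12 to −1.01). Its levels were 661, 396, 128 and 286 CPM in clusters 12, 13, 23 and 24, so cluster 23 was as low as cluster 27. The value without cluster 13 was −1.54. Overlapping genes on the other strand include Gabra4, itself at 1 against 9 UMIs. Gabra4 is among the 4 lower genes and reached 10 CPM only in the other amacrine nuclei.

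Gabrd, the delta subunit of receptors outside synapses, had 9 against 35 UMIs and a log2 ratio of −2.18 (−3.42 to −1.09). It was highest in cluster 13, at 241 CPM, and its ratio without that cluster was −0.72 (−2.31 to 0.94). Gabra2 had 43 against 78 UMIs (−1.08, −1.65 to −0.52), and its level of 143 CPM in cluster 27 was above the 70.0 CPM of rods, a log2 ratio of 1.03 (0.55 to 1.49). The GABA-B receptor genes Gabbr1 (0.35, −0.39 to 1.11) and Gabbr2 (0.47, −0.01 to 0.95) did not differ beyond counting error. The glycine receptor genes had 4 of 5 members measured, a median of 0.10 and 0 genes at 2-fold. Of all genes 11.9% were 2-fold higher and 9.88% lower. Glra3 was the highest of them at 107 CPM, against 92.9 in the other amacrine nuclei.

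Ionotropic glutamate receptor genes lay close in both populations by their median, while some single glutamate receptor genes differed. All 18 ionotropic genes reached 10 CPM, with a median log2 ratio of −0.12. At 2-fold, 1 was higher (5.56%, against 11.9% of all genes) and 3 were lower (16.7%, against 9.88%). Each of these had an interval that held 0. Gria2, an AMPA receptor subunit, was the highest at 1692 CPM in cluster 27 and 1669 CPM in the other amacrine nuclei (0.02, −0.17 to 0.21). Gria4 was lower in cluster 27, at 1269 against 1564 CPM (−0.30, −0.51 to −0.10). Among 10 metabotropic and GABA-B receptor genes, 2 were 2-fold lower. Grm3 had 10 against 27 UMIs (−1.65, −2.86 to −0.56), but 19 of the 27 were in cluster 13, and without it the ratio was −0.76 (−2.25 to 0.79). Grm2 had 1 against 8, of which 6 were in cluster 13, and it reached 10 CPM only in the other amacrine nuclei. Grm7, which acts at presynaptic sites, was at 706 CPM in cluster 27 and 2372 CPM in cluster 12, with a log2 ratio of −0.74 and an interval that ended at −0.48. Its ratio without cluster 13 was −1.06 (−1.34 to −0.78). Grm8 had 144 against 237 UMIs (−0.94, −1.24 to −0.63), and −0.52 (−0.90 to −0.14) without cluster 13.

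All 5 GABA identity genes were measured, and 1 of them, Gad1, differed 2-fold. Gad1 was lower in cluster 27 than in the other amacrine nuclei, with 35 against 62 UMIs and a log2 ratio of −1.04 (−1.68 to −0.42). Without cluster 13 it was −0.65 (−1.42 to 0.14). Gad2 did not differ beyond counting error (−0.29, −1.28 to 0.69). Cluster 27 had the second lowest Gad1 level of the 5 clusters, after 63.9 CPM in cluster 23, which had 2 UMIs and did not differ from it beyond counting error. Slc6a9 was at 137 CPM in cluster 27 and 139 CPM in the other amacrine nuclei, where cluster 23 stood at 639 CPM.

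Of 9 genes for other transmitters, 4 reached 10 CPM and none of these differed from the other amacrine nuclei beyond counting error. Slc17a7, the vesicular glutamate transporter gene of photoreceptors and bipolar cells, was the highest, with 46 UMIs in cluster 27 (153 CPM) and 26 in the other amacrine nuclei (0.61, −0.12 to 1.36), and it was below the 376 CPM of rods. Slc18a2, the vesicular monoamine transporter gene, had 13 UMIs in cluster 27 and 9 in the other amacrine nuclei (0.31, −1.02 to 1.72), and its log2 ratio to rods was 3.39 (2.31 to 4.40). Nos1, the neuronal nitric oxide synthase, had 13 UMIs in cluster 27 (43.3 CPM) and 5 in the other amacrine nuclei, against 6.26 CPM in rods. Its log2 ratio of 1.16 had an interval of −0.42 to 3.00. Slc17a8, the vesicular glutamate transporter of a small amacrine type, had 10 against 3 UMIs (1.52, −0.44 to 4.02) and was at 33.3 CPM in cluster 27 and 20.3 CPM in rods. One more gene of the list had 0 UMIs in cluster 27. Of 22 neuropeptide genes, 8 had 0 UMIs in cluster 27 and 7 reached 10 CPM in either population. Cartpt had 14 against 32 UMIs (−1.41, −2.43 to −0.46), with 486 CPM in cluster 12, but its ratio was 0.77 when a gene was counted once per nucleus.

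**Figure D4:**
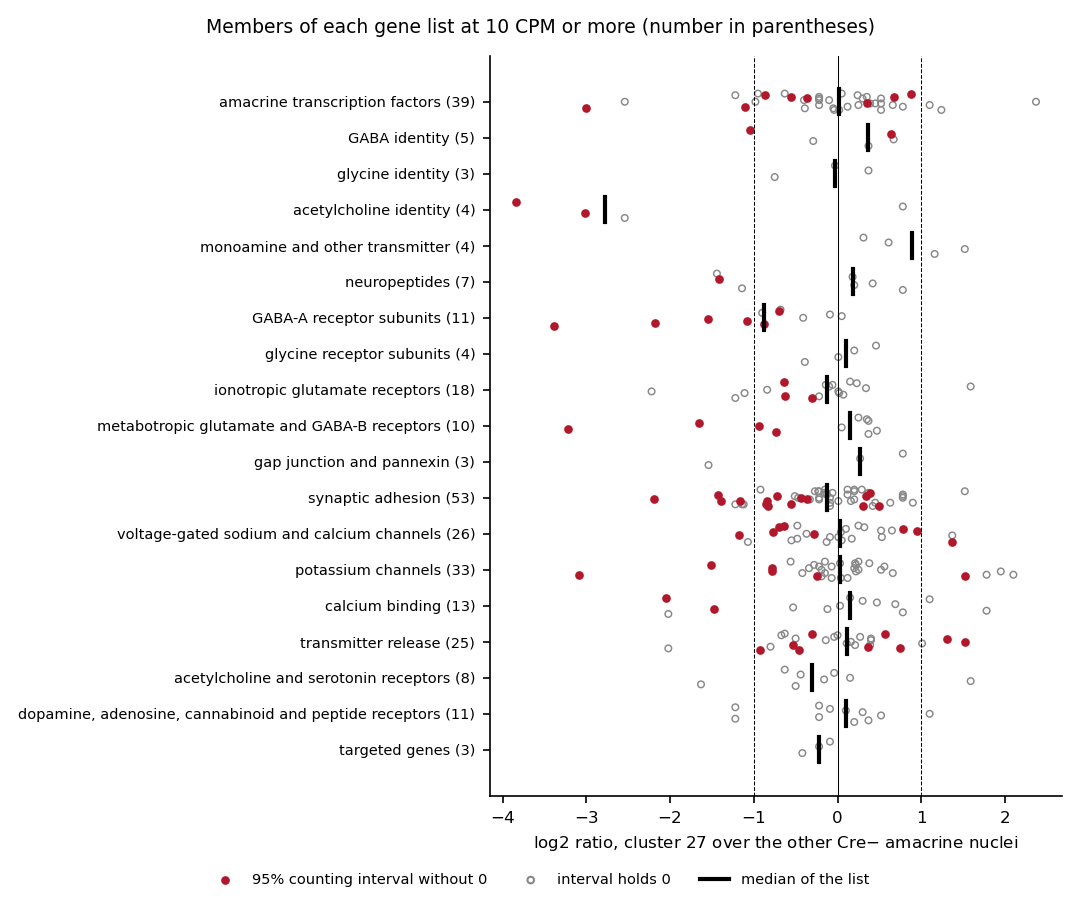
Log2 ratio of cluster 27 to the other Cre− amacrine nuclei (horizontal axis) for members of 19 gene lists at 10 CPM or more, with filled points where the exact 95% counting interval was without 0, black bars at list medians and dashed lines at 2-fold. GABA-A receptor subunits had a median of −0.88, and the acetylcholine genes lie to the left with a median of −2.78.

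Among genes of transmitter release, 3 of 25 measured were 2-fold higher, close to the 11.9% of all genes, and 1 was 2-fold lower, under their 9.88%, and the median was 0.11. Syt7, a calcium sensor of slow release, had 184 UMIs in cluster 27 (613 CPM) and 64 UMIs in the other amacrine nuclei (248 CPM), a log2 ratio of 1.31 (0.89 to 1.74). It was at 331, 103, 95.8 and 539 CPM in clusters 12, 13, 23 and 24 and at 179 CPM in rods. Cluster 24 was thus close to cluster 27, and the ratio without cluster 13 was 0.74. Vamp2, a synaptic vesicle SNARE, had 20 against 6 UMIs (1.52, 0.15 to 3.13), the largest ratio of the list, but it stood at 66.6 CPM in cluster 27 and 127 CPM in rods, and its ratio without cluster 13 was 1.66 (−0.10 to 4.05). Syt1, the main fast calcium sensor, was the highest of the list at 2441 CPM, against 3019.6 in the other amacrine nuclei (−0.31, −0.45 to −0.16).

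Of 26 measured voltage-gated sodium and calcium channel genes, 2 were 2-fold higher and 2 lower (7.69% each), below the 11.9% and 9.88% of all genes, with a median of 0.03. Cacna1i, a T-type calcium channel gene, had 36 against 12 UMIs (1.37, 0.39 to 2.45) and was at 119.9 CPM in cluster 27 and 22.9 CPM in rods, and its ratio without cluster 13 was 1.09 (−0.04 to 2.41). Cacna2d1 and Cacna2d2, which encode auxiliary subunits of calcium channels, went opposite ways. Cacna2d2 had 183 against 92 UMIs (0.78, 0.41 to 1.15) and Cacna2d1 had 61 against 119 (−1.18, −1.65 to −0.72). Cacna2d1 was highest in cluster 13, at 766 CPM, and its ratio without that cluster was −0.06, while Cacna2d2 kept a ratio of 0.60.

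Potassium channel genes had 4 members 2-fold higher (12.1%) and 2 lower (6.06%) of 33, against 11.9% and 9.88% of all genes, with the same median of 0.03. Kcnt1, a sodium-activated channel gene, had 30 against 9 UMIs (1.52, 0.41 to 2.78), and 1.02 (−0.20 to 2.45) without cluster 13. Kcnb2, a delayed rectifier gene, had 131 against 321 UMIs (−1.51, −1.81 to −1.21), or 436 against 1243 CPM. Cluster 13 again set this, at 1987 CPM, and without it the ratio was −0.54. Kcnk2, a leak channel gene, had 3 against 22 UMIs (−3.09, −5.48 to −1.36) and −1.49 (−4.27 to 1.07) without cluster 13. Calcium-binding proteins are common amacrine markers, and Calb1 had 7 against 25 UMIs (−2.05, −3.51 to −0.80) while Calb2 had 10 against 24 (−1.48, −2.71 to −0.36). Cluster 13 held 17 and 16 of these UMIs, and without it the ratios were −1.27 (−2.97 to 0.39) and −0.76 (−2.25 to 0.79). Neither differed from its level in rods beyond counting error. Of 13 measured genes of that list, 2 were 2-fold higher (15.4%) and 3 lower (23.1%), against 11.9% and 9.88% of all genes.

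Adhesion genes were measured in full, all 53 at 10 CPM or more. Lower at 2-fold were 7 of them (13.2%, against 9.88% of all genes) and higher was 1 (1.89%, against 11.9%), Fat4, at 10 against 3 UMIs. The median was −0.13, and −0.51 without cluster 13. Tenm2, a teneurin, had 219 UMIs in cluster 27 (729 CPM) and 495 in the other amacrine nuclei (1916 CPM), a log2 ratio of −1.39 (−1.63 to −1.16). Cluster 13 stood at 3295 CPM and the other 3 clusters at 607 to 960.4 CPM, so Tenm2 was not low in cluster 27 against those 3, with a ratio of −0.11. Cntnap5b, by contrast, had 29 against 67 UMIs (−1.43, −2.11 to −0.78) and was below all 4 other clusters, at 96.6 CPM against 172 to 428. Nrxn3, a presynaptic neurexin, was the highest of the list at 3091 against 4541 CPM (−0.56, −0.68 to −0.43).

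Transcription factors of amacrine types had 39 of 52 members measured, with 3 at 2-fold higher (7.69%), 4 lower (10.3%) and a median log2 ratio of 0.02. These shares were near or below the 11.9% and 9.88% of all genes, and 0 of the 3 had an interval above 0. Tfap2a was higher in cluster 27, with 79 against 37 UMIs (0.88, 0.30 to 1.48), and without cluster 13 the ratio was 0.83 (0.12 to 1.60). Tfap2b (0.25, −0.09 to 0.59) did not differ beyond counting error. Prox1, which marks several inner retinal types, had 19 against 35 UMIs (−1.10, −1.99 to −0.25) and was at 511 CPM in cluster 23 and 63.3 CPM in cluster 27. Meis2 was at 616 CPM in cluster 27, between the 146 and 288 CPM of clusters 13 and 23 and the 1322 and 1196 CPM of clusters 12 and 24. Barhl2, at 6 against 1 UMIs, had the highest ratio of the list at 2.37, which rests on too few counts to order it.

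The remaining lists held few measured genes. Of 22 acetylcholine and serotonin receptor genes, 8 reached 10 CPM and 10 had 0 UMIs in cluster 27. Chrm3, a muscarinic receptor gene, was the highest of these at 269.8 CPM, against 302 in the other amacrine nuclei (−0.16, −0.63 to 0.30). Receptors for dopamine, adenosine, cannabinoids and peptides had 11 of 17 measured, with 1 at 2-fold higher (9.09%, against 11.9% of all genes) and 2 lower (18.2%, against 9.88%), all 3 with intervals that held 0. Gap junction and pannexin genes had 3 of 7 measured, and Gjd2, the main neuronal connexin gene, was at 40.0 CPM against 43.2 in rods.

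Against all other nuclei of the Cre− library, the 10 genes that led cluster 27 at 100 CPM or more were Tbx3os1, Tfap2a, Cpne5, Csgalnact1, Tshr, Fgd6, G630016G05Rik, Col11a1, Clmn and Ptprk. Of these 1 was a fixed amacrine marker and 0 were markers of another class. All 10 were also higher in cluster 27 than in the other amacrine nuclei, 3 of them at 2-fold, and the interval was above 0 for 9 of them and held 0 for Cpne5 (0.37, −0.22 to 0.97). Without cluster 13 the interval held 0 for 7 of the 10 and was above 0 for Tfap2a, Csgalnact1 and Col11a1. Ptprk, a receptor tyrosine phosphatase, was the most abundant at 893 CPM, found in 155 of 256 nuclei, against 180.3 CPM in rods. It was at 875, 146, 479 and 1061 CPM in clusters 12, 13, 23 and 24, so clusters 12 and 24 were close to cluster 27, and its ratio without cluster 13 was 0.04 (−0.27 to 0.36). Tshr, the thyrotropin receptor gene, was at 173 CPM, with 8 of its 52 UMIs in 1 nucleus and 331 CPM in cluster 12. Csgalnact1, an enzyme of chondroitin sulfate synthesis, was at 183 CPM in cluster 27 and 33.3 CPM in rods, and was above all 4 other clusters at 0 to 135 CPM.

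Nuclei of cluster 27 also differed among themselves. For 2097 genes with at least 30 UMIs, the variance over nuclei was set against the Poisson expectation from each nucleus's total, and its median ratio was 0.971. The ratio was 1.5 or more for 85 genes and 2 or more for 37. The highest, Pkp4 at 15.3, came from 1 nucleus with 33 of its 78 UMIs, and without that nucleus it was 1.17. Among genes that many but not all nuclei held, Hs6st3, Ptprd, Adarb2 and Pcdh9 had ratios of 3.90, 3.70, 3.60 and 3.60, and 2.97 to 3.20 without the highest nucleus. Hs6st3 encodes a heparan sulfate sulfotransferase, Ptprd a synaptic receptor phosphatase, Adarb2 a protein of the RNA editing family and Pcdh9 a protocadherin.

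To see what moved with such genes, nuclei with at least 2 UMIs of a gene were set against nuclei with 0 UMIs. These genes and their partners were chosen after their values were seen, so the ratios within cluster 27 are descriptions. The same pairs were then read in the other Cre− amacrine nuclei and in the 1043 Tet tcKO amacrine nuclei, which had no part in the choice. Within cluster 27, nuclei with 2 or more UMIs were slightly deeper, for example a median of 1084 against 931 UMIs for Lrrc4c. The rod marker level was 3254 against 3797 CPM for Lrrc4c, and it was also lower with Pcdh9 and Adarb2. It was higher with Ptprd, at 3616 against 3232 CPM, and with Kcnip4 and Hs6st3. The depth of the divided groups outside the cluster is not given here. Those populations pool clusters with median depths of 1012 to 3151 UMIs in Cre− and 1204 to 2651 in Tet tcKO. The part of depth and of cluster mix in the ratios was not tested.

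Lrrc4c, which encodes a postsynaptic netrin-G ligand, divided the cluster into 113 nuclei with 2 or more UMIs and 92 nuclei with 0. Col11a1 had 96 UMIs in the first (627 CPM) and 16 in the second (172 CPM), a log2 ratio of 1.87 (1.09 to 2.73). In the other Cre− amacrine nuclei this ratio was 2.04 (0.23 to 4.46), and in Tet tcKO amacrine nuclei it was 1.54 (1.24 to 1.84). Robo1, an axon guidance receptor gene, had ratios of 1.18 (0.81 to 1.56), 0.94 (0.47 to 1.44) and 1.23 (1.04 to 1.42) in the same order. For Sdk1, a gene for layer-specific adhesion in the inner retina, they were 1.19 (0.73 to 1.66), 1.55 (1.01 to 2.12) and 1.04 (0.77 to 1.33). These 3 genes thus moved with Lrrc4c in all 3 populations.

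Ptprd, in contrast, was lower in nuclei with Lrrc4c, at 1215 against 2883 CPM and a log2 ratio of −1.25 (−1.52 to −0.97). The ratio was −0.65 (−0.91 to −0.39) in the other Cre− amacrine nuclei and −0.22 (−0.32 to −0.13) in Tet tcKO amacrine nuclei, the same sign at a smaller size. Divided by Ptprd itself, 121 nuclei had 2 or more UMIs and 75 had 0. Col11a1 was at 231 CPM in the first and 819.7 CPM in the second (−1.83, −2.46 to −1.22), and at −2.15 and −1.26 in the other 2 populations. Pcdh7, a protocadherin gene, went with Ptprd at 1.74 (0.99 to 2.58), 2.55 (1.40 to 4.01) and 1.14 (0.78 to 1.52). Grm7 did so at 1.36 (0.79 to 1.97), 1.72 (0.99 to 2.55) and 0.88 (0.60 to 1.17).

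**Figure D5:**
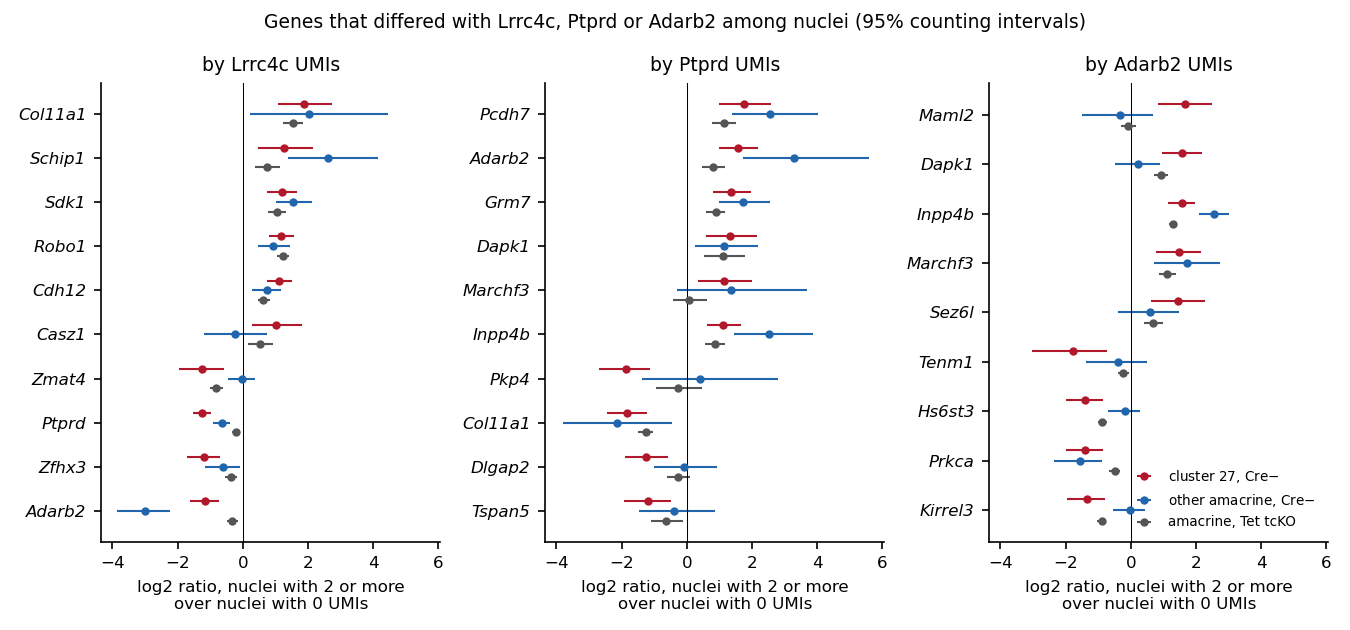
Log2 ratios (horizontal axes) of genes between nuclei with 2 or more and with 0 UMIs of Lrrc4c, Ptprd or Adarb2, in cluster 27 (red), the other Cre− amacrine nuclei (blue) and Tet tcKO amacrine nuclei (grey), with exact 95% counting intervals. Col11a1 is at 1.87 with Lrrc4c and −1.83 with Ptprd in cluster 27, and Inpp4b is at 1.56 with Adarb2.

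Adarb2 divided the cluster into 42 nuclei with 2 or more UMIs and 166 with 0. Inpp4b, a phosphoinositide phosphatase gene, was at 1594 against 541 CPM, a log2 ratio of 1.56 (1.14 to 1.98), with 2.55 (2.10 to 3.01) and 1.30 (1.18 to 1.42) in the other 2 populations. Ptprd was also higher with Adarb2, at 2933 against 1387 CPM (1.08, 0.80 to 1.36). Hs6st3 was lower, at 494 against 1311 CPM (−1.41, upper bound −0.86), with −0.19 (−0.71 to 0.29) in the other Cre− and −0.87 (−1.01 to −0.72) in the Tet tcKO amacrine nuclei. Maml2, a Notch coactivator gene, had 1.65 (0.83 to 2.48) in cluster 27 but −0.34 (upper bound 0.67) in the other Cre− amacrine nuclei and −0.08 (−0.30 to 0.15) in Tet tcKO. Pkp4, with 33 of its 78 UMIs in 1 nucleus, was lower with Ptprd at −1.88 in cluster 27 but at 0.40 and −0.27 in the other 2 populations.

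Most pairs within the cluster had the same sign outside it, but not all did so beyond counting error. Over 6 dividing genes, Hs6st3, Kcnip4, Ptprd, Pcdh9, Adarb2 and Lrrc4c, 36 highest and 24 lowest partners were read. In the other Cre− amacrine nuclei 32 of the 36 and 18 of the 24 had the same sign. The whole interval was on that side for 22 and 8 of them, and for 0 of the 4 lowest partners of Hs6st3. In the Tet tcKO amacrine nuclei 30 of the 36 and 20 of the 24 had the same sign, 26 and 17 of them with the whole interval there. Groups with few UMIs have wide intervals, so an interval that held 0 does not show absence. The share of such genes over all genes is not given here.

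Nuclei were also divided by transmitter gene, although Slc6a9 in cluster 27 could not be told from its rod level, so these are nuclei with a UMI of one gene or the other and not cell types. Before thinning, 28 nuclei had Slc6a9 only (35085 UMIs) and 44 had Gad1 or Gad2 only (56153 UMIs). Among 3901 genes measured, 131 (3.36%) differed at least 2-fold with a counting interval without 0. With intervals at 95% for each gene, some leave out 0 by counting error alone. How many of the 131 did so was not tested. The lowest in the Slc6a9 nuclei was Pde1c, a calmodulin-dependent phosphodiesterase, at 1 against 21 UMIs, a log2 ratio of −3.71 (−9.08 to −1.08). The same division gave 0.11 for Pde1c in the other Cre− amacrine nuclei and 0.56 in the Tet tcKO amacrine nuclei, so the low value was not seen outside the cluster. Nfix, a nuclear factor gene, had 7 against 1 UMIs (3.49, 0.53 to 8.98), with 0.69 and 1.35 outside the cluster.

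The targeted genes were measured in Cre− cluster 27 at 76.6 CPM for Tet1 (48.6 to 115), 86.6 CPM for Tet2 (56.6 to 127) and 139.9 CPM for Tet3 (101 to 189). None of the 3 differed from the other amacrine nuclei beyond counting error, with log2 ratios of −0.09, −0.42 and −0.22. In the 21 Tet tcKO nuclei of cluster 27, which held 27617 UMIs, the same genes had 3, 4 and 5 UMIs. A 3′ count does not show whether the floxed exons were present. Tfap2a had 7 UMIs and Tfap2b 28 UMIs in those nuclei, while Slc6a9 had 2, Chat 0 and Col11a1 37.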

How the data were processed

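Nuclei of whole retina were captured with the PIPseq 3′ kit, 1 library per genotype. Per the labels, reads were processed with pipseeker 3.3.0 and aligned to GRCm39. The authors removed ambient RNA with CellBender and kept nuclei by total and mitochondrial content in Monocle3, and the deposited matrices hold whole UMI counts. The deposited mitochondrial percent was read for depth checks only. The deposited size factor, a ratio of nucleus totals, was not used. The deposited gene table gives a signal per genotype, the mean over nuclei of counts per 10000 (within 1% for 32227 of 32227 genes in Cre−), and was not used further.

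UMIs were summed per population and divided by the sum of all genes (CPM). Log2 ratios are cluster 27 over the other amacrine nuclei, with conditional exact intervals, Poisson intervals for levels and Clopper-Pearson intervals for shares, all at 95%. A count of 0 was set to 3, and genes with at most 3 UMIs in each population got no ratio. Genes at 10 CPM or more in either population were counted. Named genes were the 4 given markers, the 12 highest and 12 lowest ratios at 100 CPM or more, the 10 leading against the rest of the library, the 3 targeted genes and, in each of 19 lists, the 3 most abundant and the 3 with the largest ratio at 50 CPM or more. Other genes named were chosen after their values were seen, as were those that divide the cluster. The members and lists were chosen with earlier results of these data known. Results of some genes, and an alternative that used one, are not reported here. No genotype comparison was made, and no leave-one-out, since each genotype had 1 library. Doublet scores were computed with scrublet in scanpy 1.11.5, and leaving out the highest 5% was an alternative. Python 3.11.15, numpy 2.4.6, scipy 1.17.1 and pandas 2.3.3 were used, and the steps were tested on simulated data.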

Additional observations from a re-analysis of the deposited data

How the results depend on the processing

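Under the alternatives for scaling, filtering, depth, doublets and the choice of other nuclei, 56 of the values that answer a comparison kept their direction and size and 14 moved. Of 1035 values of single genes, 959 stayed within the first counting interval, 68 moved and 8 changed sign. Most of the changes came from 2 alternatives. Without cluster 13, 31 moved and 6 changed sign, and with each gene counted once per nucleus 26 moved and 2 changed sign. Of 53 named genes at 2-fold or more, 45 kept their sign throughout. Counting each gene once per nucleus turned Cartpt to 0.77 and Nxph1 to 0.29. Leaving out cluster 13 turned Grin2c to 0.73, Gng7 to 1.92, Isl1 to 1.24, Megf11 to 1.17, Slc24a4 to 0.24 and Sox2ot to 2.51. The median of the acetylcholine genes went from −2.78 to −0.08, since cluster 13 held most of their UMIs. The value of −0.08 is that of Megf10 alone, at 6 against 0 UMIs with the 0 set to 3. No other gene of that list kept a ratio, so −0.08 does not describe the list. A filter of 50 CPM left 234 genes 2-fold higher and 285 lower. Counting only genes whose interval was without 0, an alternative chosen after seeing the data, left 231 and 263.

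The share of nuclei with Gad1 or Gad2 only was 17.2% without thinning, 16.5% among nuclei with at least 1000 UMIs thinned to 1000, and 1.56% with a gene counted from 2 UMIs. The share with Slc6a9 only was 2.73% in the last of these. Nuclei with both made up 1.56% without thinning and 2.48% at 1000 UMIs, and nuclei with neither 70.3%, 71.9% and 95.7% in the order above. The shares moved with the depth and with the UMIs asked for.

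No paired analysis was possible because each genotype had 1 library with no replicate number, and for the same reason none was left out. The planned comparison between genotypes was not run, since 21 nuclei were under the minimum of 50. Depth limits the low genes, as 10 CPM in cluster 27 is 3 UMIs.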
